A study of Mus musculus with 4 samples.

Results

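The contractile genes of smooth muscle were followed across sections of mouse popliteal lymph nodes (PLNs), the nodes behind the knee that drain the ankle. They were Acta2, Myh11, Tagln, Des, Cnn1, Myl9, Actg2, Tpm2 and Lmod1, a list chosen by name from what these genes are known to encode, and they made up 9 of the 32287 features measured. Spatial transcriptomics (10x Visium) was used, in which a section lies on a grid of barcoded spots and each spot captures the polyadenylated RNA of the tissue above it, so that 1 spot can hold several cells of different types. The questions were how these genes were distributed over the nodes, and how their levels differed between wild-type (WT) mice and TNF-transgenic (TNF-Tg) mice, an arthritis model with excess tumor necrosis factor, at an Early and an Advanced stage. All mice were males on the C57BL/6 background.

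Each capture area held a pool of nodes. The WT area held 10 PLNs of 5 mice aged 5.5 months, and the Early area held 6 PLNs of 3 TNF-Tg mice, also aged 5.5 months. Advanced 1 and Advanced 2 each held 6 PLNs of 3 TNF-Tg mice aged 8.5 to 9.0 months. Stage and age therefore cannot be told apart between Early and Advanced, and no WT area of the Advanced age was analysed here. Spots were not assigned to single mice or nodes here, so the capture area was the replicate: WT and Early were single areas and Advanced had 2.

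Smooth muscle contraction depends on actin and myosin filaments that are switched on by phosphorylation of the myosin light chain. In a lymph node this machinery is known from the muscle coat of arteries and veins, from the collecting lymphatic vessels that pump lymph to and from the node, and in part from pericytes and myofibroblast-like cells of the capsule. Several of the genes are not exclusive to smooth muscle: Des and Tpm2 are also made by skeletal muscle, and Acta2 and Myl9 by contractile stromal cells.

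In the GRCm38 build, Acta2 (ENSMUSG00000035783, smooth muscle alpha-actin) lies at chr19:34241090-34255590 on the minus strand and Actg2 (ENSMUSG00000059430, the gamma-actin of smooth muscle) at chr6:83512905-83536265 on the minus strand. Myh11 (ENSMUSG00000018830), the smooth muscle myosin heavy chain, spans chr16:14194535-14291372 (minus). Myl9 (ENSMUSG00000067818), the regulatory light chain of that myosin, spans chr2:156775420-156781658 (plus). The actin-binding proteins transgelin and calponin are encoded by Tagln (ENSMUSG00000032085) at chr9:45929619-45936058 (minus) and Cnn1 (ENSMUSG00000001349) at chr9:22099216-22109630 (plus). Tpm2 (ENSMUSG00000028464), a tropomyosin that lies along the actin filament, spans chr4:43514711-43523765 (minus). Lmod1 (ENSMUSG00000048096), a nucleator of actin filaments, spans chr1:135324807-135368065 (plus). The intermediate filament protein desmin is encoded by Des (ENSMUSG00000026208) at chr1:75360329-75368579 (plus).

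Serum response factor is known to act on many of these genes through the CArG box, in which a run of A and T bases stands between CC and GG. Because Acta2 and Myl9 were the pair that differed between edge and interior spots (given further on), the windows around the CArG matches upstream of them are shown, 5′ to 3′ on the gene's strand, with the matching letters in capitals and coordinates in GRCm38.p6 (sequences from RefSeq):
Myl9, chr2:156775293-156775322, plus strand: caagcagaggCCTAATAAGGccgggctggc
Myl9, chr2:156775355-156775384, plus strand: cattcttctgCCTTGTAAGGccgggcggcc
Acta2, chr19:34255438-34255467, minus strand: gtgctgaggtCCCTATATGGttgtgttaga
Acta2, chr19:34255388-34255417, minus strand: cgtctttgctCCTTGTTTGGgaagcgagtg

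The first Myl9 window held a strict match starting 161 bases upstream of the RefSeq start. The other Myl9 window, 99 bases upstream, and both Acta2 windows, 84 and 34 bases upstream, each had 1 base in the middle of the match that was neither A nor T. The GENCODE annotation places both Acta2 windows in an exon and neither Myl9 window in one. A RefSeq promoter was at hand for 6 of the 9 genes (Acta2, Myl9, Des, Cnn1, Tpm2 and Lmod1), and Des, Cnn1, Tpm2 and Lmod1 held no match in the 250 bases upstream. Both strands were searched at once, since the pattern reads the same on each. Of 32851 mouse promoter windows of the same length, 1.47% held a strict match, 8.59% held a match with at most 1 such base, and 0.670% held 2 or more of the latter. These are matches of letters, and no binding was measured.

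The 4 areas held 6119 spots over tissue (833 in WT, 1489 in Early, 2015 in Advanced 1 and 1782 in Advanced 2) and between 1808678 and 5180493 UMIs (unique molecular identifiers, which count captured molecules). The UMIs were concentrated at the rim of the tissue. A spot was called an edge spot where fewer than 6 of its grid neighbours were over tissue, and an interior spot where all 6 were. The median edge spot held 2113 to 5541 UMIs and the median interior spot 140.5 to 250.5, so that edge spots, 15.6% to 32.1% of all spots, held 47.9% to 79.3% of the UMIs. Levels are therefore given as UMIs per 10000 UMIs, with 95% Poisson intervals that cover counting error only, and interior values rest on fewer molecules per spot. Why interior spots held fewer UMIs was not tested. Reads come from the 3′ ends of transcripts, and levels were not compared between genes.

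The 9 genes were a small part of the RNA, and summed they stood at 4.46 UMIs per 10000 in WT (4.16 to 4.78), 3.80 in Early (3.63 to 3.97), 3.93 in Advanced 1 (3.72 to 4.15) and 5.06 in Advanced 2 (4.82 to 5.31). The 2 Advanced areas thus lay on opposite sides of WT. Advanced 2 was 1.29 times Advanced 1 (1.20 to 1.39), and Early was 0.851 times WT (0.783 to 0.924). In these sums, and in every level below, fewer contractile cells and less RNA per cell cannot be told apart. A member UMI was found in 21.1% to 29.4% of the spots of an area.

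Acta2 stood at 0.995 UMIs per 10000 in WT (0.855 to 1.15), 1.02 in Early (0.936 to 1.11), 0.838 in Advanced 1 (0.743 to 0.941) and 1.09 in Advanced 2 (0.977 to 1.21). Its order from low to high was Advanced 1, WT, Early and Advanced 2; the intervals of neighbours in that order overlapped, and those of Advanced 1 and Advanced 2 did not. Myh11 was at 0.520, 0.483, 0.518 and 0.516 in WT, Early, Advanced 1 and Advanced 2, from 94, 250, 175 and 165 UMIs, with no area apart from the others. Actg2 had only 8, 28, 5 and 22 UMIs in that order of areas, or 0.0442, 0.0540, 0.0148 and 0.0688 UMIs per 10000.

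Of the genes for the actin-binding proteins, Tagln set Advanced 2 apart. It was at 0.614 UMIs per 10000 in WT (0.505 to 0.739), 0.620 in Early (0.554 to 0.691), 0.533 in Advanced 1 (0.458 to 0.617) and 1.07 in Advanced 2 (0.962 to 1.19). The interval of Advanced 2 lay above those of the other 3 areas, and the level there was 2.01 times that of Advanced 1 (1.68 to 2.42). Cnn1 was counted 13 times in WT, 16 in Early, 5 in Advanced 1 and 28 in Advanced 2, which gave 0.0719 UMIs per 10000 (0.0383 to 0.123), 0.0309 (0.0177 to 0.0502), 0.0148 (0.00481 to 0.0345) and 0.0875 (0.0582 to 0.127). WT and Advanced 2 overlapped and stood above Advanced 1, and the ratio of Advanced 2 to Advanced 1 was 5.92 (2.26 to 19.6).

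Myl9 was lowest in Early, at 0.504 UMIs per 10000 (0.445 to 0.569), against 0.752 in WT (0.631 to 0.889), 0.690 in Advanced 1 (0.604 to 0.784) and 0.835 in Advanced 2 (0.738 to 0.941). The interval of Early did not overlap those of the other areas. The Early level was 0.670 times that of WT (0.543 to 0.831), and the Advanced areas were 1.37 (1.14 to 1.64) and 1.66 (1.39 to 1.97) times Early. Des showed a smaller difference of the same direction between Early and WT, with 0.874 in WT (0.743 to 1.02), 0.645 in Early (0.577 to 0.718), 0.779 in Advanced 1 (0.687 to 0.879) and 0.763 in Advanced 2 (0.670 to 0.865). Tpm2 was at 0.492, 0.384, 0.485 and 0.569 in the same order, and the Early interval (0.333 to 0.441) overlapped those of WT and Advanced 1 but not that of Advanced 2. Lmod1 rested on 18 to 28 UMIs per area and stood at 0.0995 in WT, 0.0540 in Early, 0.0562 in Advanced 1 and 0.0594 in Advanced 2.

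**Figure D1:**
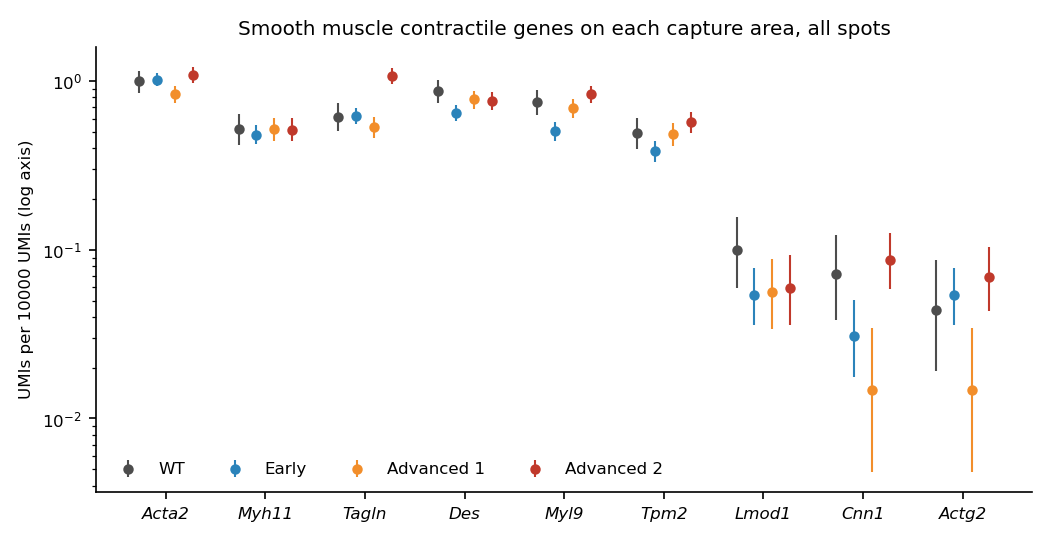
Level of each smooth muscle gene in the 4 capture areas, in UMIs per 10000 UMIs over all spots, with 95% Poisson intervals as bars (counting error only). Tagln in Advanced 2, at 1.07, lies above the other 3 areas, and Myl9 in Early, at 0.504, lies below them.

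Counting intervals do not hold the spread between areas, so the stages were compared on counts summed per area with edgeR's quasi-likelihood test over all genes. The 2 Advanced areas gave the only estimate of spread, which edgeR pools over genes. The single WT and Early areas were assumed to vary like the Advanced pair. Of 13102 genes tested, 1.16% were called between Advanced and Early, and none of the 9 members was. At an unadjusted p below 0.05 edgeR gave 1 member, and 1007 of the 13102 genes. That member was Myl9, with a log2 difference of 0.52 (SE 0.22, unadjusted p = 0.0168, adjusted p = 0.391), and DESeq2 called 0 members. Between Advanced and WT, 2.08% of genes were called by edgeR but no member, with 0 members below an unadjusted p of 0.05 and 0 called by DESeq2. The median log2 difference of the members was 0.18 against Early and -0.16 against WT, where the medians of all genes tested were both 0.01. With library totals in place of TMM the members' medians were 0.26 and -0.05 and those of all genes 0.09 and 0.13. It depended on which Advanced area was used: against Early it was 0.28 without Advanced 1 and -0.03 without Advanced 2, both without a test, since no residual degrees of freedom remained.

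Restricting the comparison to edge spots gave no member call either. For Advanced against Early, edgeR called 0.149% of 12092 genes and no member, and DESeq2 called 0 members. By edgeR 2 members had an unadjusted p below 0.05, as did 574 of the 12092 genes. Those members were Myl9, with a log2 difference of 0.76 (SE 0.22, unadjusted p = 0.00408, adjusted p = 0.555), and Tpm2, with 0.65 (SE 0.28, unadjusted p = 0.0357, adjusted p = 0.993). For Advanced against WT in edge spots, edgeR called 1.04% of genes, no member, and 0 members below an unadjusted p of 0.05, and DESeq2 called 0 members. Early against WT compared 1 area with 1 area and had no test.

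Other genes of the contractile program were read in the same fits over all spots. This list of 34 holds myosin light chain kinase, the regulators of myosin phosphatase, caldesmon, tropomyosin, the integrin Itga8 and Srf and its cofactors. Of the 28 that could be tested, edgeR called 0 between Advanced and Early and 0 between Advanced and WT, with 1 at an unadjusted p below 0.05 in each. The shares of all genes called were 1.16% and 2.08%, so 0 of 28 lay near them and does not show that the list was unchanged. The list summed to 31.7 UMIs per 10000 in WT, 31.0 in Early, 32.8 in Advanced 1 and 32.3 in Advanced 2. Some genes of other cell types were called in the same fits. Of 10 lymphatic endothelial genes, 3 were higher in Advanced than in Early: Ccl21a, the chemokine of lymphatic vessels, by 1.13 on the log2 scale (SE 0.16, adjusted p = 6.95e-10), Reln by 1.00 and Nts by 2.67. Another 3 were lower in Advanced than in WT: Lyve1, a hyaluronan receptor, with a log2 difference of -1.09, Mmrn1 with -0.84 and Flt4, the receptor of VEGF-C, with -0.70. Of 12 blood endothelial genes only Vwf, von Willebrand factor, rose from Early, by 1.85 (SE 0.28, adjusted p = 2.32e-08), and 0 were called against WT, with 0 at an unadjusted p below 0.05 by edgeR and 0 by DESeq2. Over the alternative settings the lymphatic calls ran from 1 to 3 against Early and from 0 to 4 against WT, and the blood endothelial calls against Early from 0 to 2.

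Adipocyte and skeletal muscle genes also differed by stage. Of 10 adipocyte genes, 5 were higher in Advanced than in Early over all spots (8 at an unadjusted p below 0.05, median log2 difference 0.79), led by Retn (1.91), and 5 in edge spots; over the alternative settings the counts ran from 0 to 6 and from 4 to 8. Against WT 2 were higher and 1, Lpl, was lower. Of 12 skeletal muscle genes tested, 2 were higher in Advanced than in Early, Ckm and Atp2a1 (median of the list 1.82), and 1, Ttn, was higher than in WT (3.17). Over the alternative settings the count against Early ran from 0 to 2, and Ckm had 0 UMIs in Early. Of 12 fibroblast and capsule genes, 3 were lower in Advanced than in WT, Lum (-0.96), Dcn (-0.80) and Gsn (-0.71), and 1, Col3a1, lower than in Early (-0.77). The part of these tissues in the levels of the contractile genes, Des and Tpm2 among them, was not tested.

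The position of the genes relative to the tissue edge was tested next, with edge and interior spots summed in each area and the area as a block. This edge is that of connected tissue, not of each node. The largest connected piece held 828 of 833 spots in WT and 2013 of 2015 in Advanced 1. Borders between nodes inside such a piece can therefore count as interior. Summed over the 9 genes, edge spots stood at 4.33 UMIs per 10000 in WT and interior spots at 4.95, a ratio of 0.88 (0.74 to 1.04). The ratio was 1.07 (0.96 to 1.19) in Early, where edge spots were at 3.86 and interior spots at 3.60. In Advanced 1 it was 1.22 (1.10 to 1.36), from 4.34 and 3.55, and in Advanced 2 it was 2.03 (1.80 to 2.29), from 6.17 and 3.04. Interior levels were thus highest in WT, and edge levels in Advanced 2.

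Acta2 and Myl9 were higher in edge than in interior spots. Acta2 was at 1.03 in edge and 0.856 in interior spots of WT, 1.06 and 0.890 in Early, 1.09 and 0.602 in Advanced 1, and 1.40 and 0.529 in Advanced 2. The ratio was 1.20 (0.82 to 1.82) in WT, 1.19 (0.97 to 1.49) in Early, 1.82 (1.42 to 2.33) in Advanced 1 and 2.64 (1.99 to 3.55) in Advanced 2, so that the edge level was the higher one in 4 of 4 areas but the intervals of WT and Early included 1. In Early, 67 of the 417 Acta2 UMIs at the edge came from 15 spots in small separate pieces of tissue. The log2 difference was 0.80 (SE 0.15, edgeR adjusted p = 0.00172). Myl9 was at 0.746 in edge and 0.776 in interior spots of WT, and had ratios of edge to interior of 1.54 (1.11 to 2.17) in Early, 1.67 (1.27 to 2.19) in Advanced 1 and 2.64 (1.92 to 3.71) in Advanced 2. Its log2 difference over the 4 areas was 0.84 (SE 0.17, adjusted p = 0.00256), with WT the exception in direction. These were 2 of the 9 members, where 483 of 11675 genes (4.14%) were called higher at the edge and 407 (3.49%) lower. With library totals in place of TMM the split of all genes was 302 higher and 691 lower, and Acta2 and Myl9 stayed called with 0.72 and 0.75.

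Both calls were lost without Advanced 2. Without that area edgeR called 0 of 7 members tested and 272 of 11440 genes, against 890 of 11675 genes with all areas. Of the members, 3 had an unadjusted p below 0.05 by edgeR, as did 1763 of the 11440 genes. The log2 differences were 0.58 for Acta2 (adjusted p = 0.0593) and 0.61 for Myl9 (adjusted p = 0.0826). Without WT, 4 of 7 members tested were called higher, Tagln and Lmod1 among them, where 616 of 11674 genes were. The same 4 were called with no filter on low counts, where 613 of 18769 genes were. DESeq2 called Acta2 and Myl9, with adjusted p = 0.00550 and 0.0158. Among spots of at least 500 UMIs edgeR gave 0.73 for Acta2 (adjusted p = 0.00450) and 0.80 for Myl9 (adjusted p = 0.00510).

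The other 7 members did not pass the test. Lmod1 had a log2 difference of 1.38 (SE 0.45, adjusted p = 0.0628) and a higher edge level in 4 of 4 areas, with ratios of 1.30 in WT, 1.93 in Early, 3.05 in Advanced 1 and 4.67 in Advanced 2. Tagln had 0.44 (SE 0.17, adjusted p = 0.127), and its ratio of edge to interior was 0.81 in WT, 1.03 in Early, 1.11 in Advanced 1 and 2.22 (1.70 to 2.94) in Advanced 2. Tpm2 lay on different sides of 1, with a ratio of 0.54 (0.34 to 0.87) in WT, 0.78 in Early, 0.87 in Advanced 1 and 2.39 (1.64 to 3.58) in Advanced 2. Its log2 difference was 0.09 (SE 0.21, adjusted p = 0.857), and -0.32 without Advanced 2. Myh11 had ratios of 0.85, 1.02, 1.15 and 1.38 in the same order of areas and a log2 difference of 0.24 (SE 0.15, adjusted p = 0.396). Des had ratios of 0.92, 0.87, 0.76 (0.59 to 0.98) and 1.01, and a log2 difference of -0.10 (SE 0.13, adjusted p = 0.704). Cnn1 and Actg2 rested on few molecules. In Advanced 2, 27 of 28 Cnn1 UMIs and 21 of 22 Actg2 UMIs fell in edge spots, whereas in WT the split was 9 edge and 4 interior UMIs for Cnn1 and 4 and 4 for Actg2. The median log2 difference of the 9 members was 0.80, and that of all genes tested was -0.0027.

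**Figure D2:**
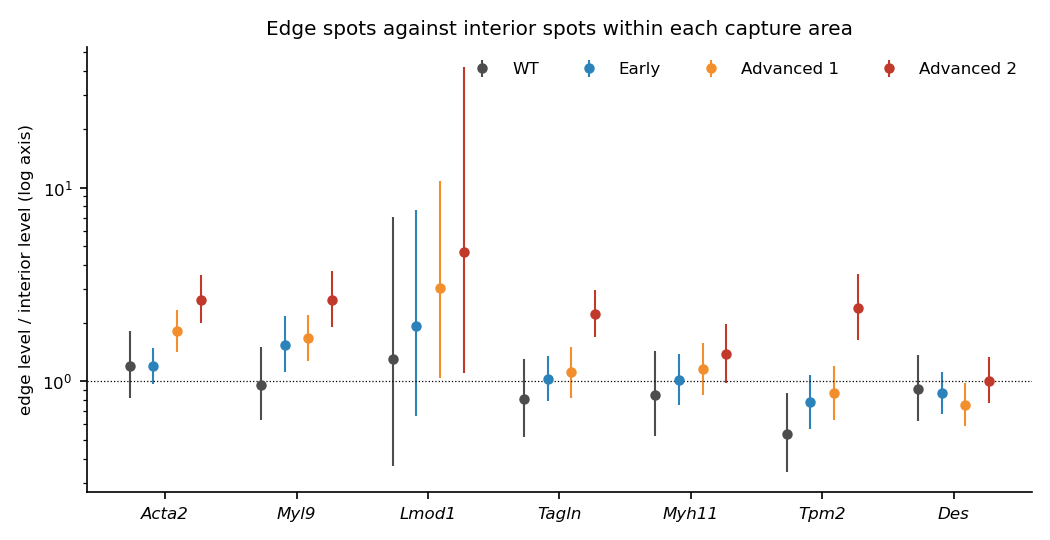
Ratio of the edge to the interior level in each area for the 7 smooth muscle genes other than Cnn1 and Actg2, which had few UMIs, on a log axis, with 95% intervals from counting error; points at 1 mean equal levels. For Tpm2 the ratio runs from 0.54 in WT to 2.39 in Advanced 2, and for Acta2 from 1.20 to 2.64.

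Whether the edge to interior difference itself depended on stage was tested with an interaction term. For Advanced against Early, edgeR called 0.0408% of 12254 genes and no member. At an unadjusted p below 0.05 there were 3 members, as were 471 of the 12254 genes. These members were Acta2 with a log2 difference of differences of 0.81 (SE 0.28, unadjusted p = 0.00412, adjusted p = 0.839), Tpm2 with 0.78 (unadjusted p = 0.0305 by edgeR) and Cnn1 with 3.55 (unadjusted p = 0.0364 by edgeR). For Advanced against WT, a comparison added after the data were seen, edgeR called 0.245% of genes and no member, with 6 members at an unadjusted p below 0.05, as were 1081 of the 12254 genes. In the same fit 3 of 10 adipocyte genes were called higher, Plin4 (2.89), Car3 (2.78) and Cfd (2.72), with 8 at an unadjusted p below 0.05 and a median of 1.70, and the count ran from 0 to 3 over the alternative settings. The lowest adjusted p values among the members were those of Tpm2, with 1.34 (adjusted p = 0.265), and Myl9, with 1.07 (adjusted p = 0.344). DESeq2 called 0 members in both. The larger edge to interior ratios of the Advanced areas were therefore not distinguished from those of WT or Early after adjustment.

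Levels were also read by steps inward from the rim, and were lower at each further step in Advanced 2 alone, the last steps with overlapping intervals. There the summed members went from 6.17 UMIs per 10000 at the outermost spots to 4.12 at the next step, 2.70 at the step after that and 2.47 further in. In Advanced 1 the values were 4.34, 3.61, 3.30 and 3.57, and in Early 3.86, 3.41, 3.52 and 4.06. In WT they were 4.33, 4.81, 5.72 and 4.17, with overlapping intervals, the last from only 15 member UMIs. Acta2 followed the sum in Advanced 2, with 1.40, 0.76, 0.52 and 0.38. In WT it stood at 1.03, 0.63, 1.22 and 1.67, the last from 6 UMIs (0.612 to 3.63).

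**Figure D3:**
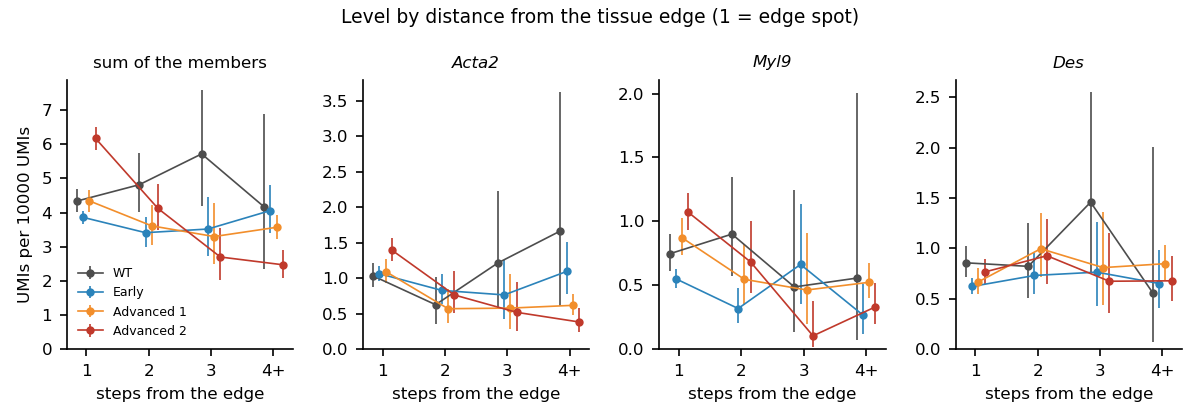
Summed smooth muscle genes, Acta2, Myl9 and Des in UMIs per 10000 by steps inward from the tissue rim (step 1 holds the edge spots), for each area, with 95% Poisson intervals. The sum in Advanced 2 declines from 6.17 to 2.47, while in Early it stays between 3.41 and 4.06.

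What else lay at the edge was read from marker lists. Adipocyte genes showed the most change: 10 of 10 were higher in edge spots, with a median log2 difference of 2.1, led by Car3 (3.41), Adipoq (2.97), Cfd (2.72) and Retn (2.64). Summed, the adipocyte genes stood at 16.5 UMIs per 10000 in edge and 11.9 in interior spots of WT, 12.9 and 6.69 in Early, 27.7 and 9.19 in Advanced 1, and 31.7 and 9.22 in Advanced 2. The part of adipocyte RNA in the edge levels of Acta2 and Myl9 was not tested. Of 5 B cell genes 3 were higher at the edge (0 to 4 over the settings), and of 5 T cell genes 3 were lower (1 to 4). Of 7 reticular stroma genes 2 were higher (1 to 2). Cxcl13 was among them, with a log2 difference of 0.83 to 1.12 over the settings. Fibroblast and capsule genes were higher in 2 of 12 (0 to 2). Over all genes tested, 4.14% were called higher and 3.49% lower.

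Of 9 lymphatic endothelial genes tested, 0 were higher and 1, Ccl21a, was lower in edge spots, with a log2 difference of -0.52 (SE 0.12, adjusted p = 0.00999) and the lower level in 4 of 4 areas; the call was lost without Early (adjusted p = 0.0545) and without Advanced 2 (adjusted p = 0.219). Summed, the lymphatic list stood at 21.0 UMIs per 10000 in edge and 19.3 in interior spots of WT, 8.41 and 12.5 in Early, 11.5 and 16.9 in Advanced 1, and 13.3 and 23.1 in Advanced 2, so that WT differed in direction. None of the 12 blood endothelial genes was called, with 1 at an unadjusted p below 0.05 by edgeR and 0 by DESeq2, and the median was 0.00. Gja4, a connexin of arterial endothelium, was higher at the edge (1.06, SE 0.21, adjusted p = 0.00282), as were Glycam1 (1.36) and Madcam1 (0.89). Both were placed in the list of high endothelial venules, of which Glycam1 is an adhesion ligand. The authors of the data used Madcam1 as a marker of lymphatic endothelium at the subcapsular floor. Of the 26 contractile program genes tested, 2 were higher, Hspb1, a small heat shock protein (0.87, SE 0.24, adjusted p = 0.0292), and Ppp1r14a, an inhibitor of myosin phosphatase (0.97, SE 0.29, adjusted p = 0.0416). DESeq2 called neither. Pdgfrb, the platelet-derived growth factor receptor of pericytes, was lower (-0.47, SE 0.14, adjusted p = 0.0492) and was likewise not called by DESeq2.

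Skeletal muscle shares Des and Tpm2 with smooth muscle, and its own markers had few UMIs. Mb, myoglobin, had 0 UMIs in all 4 areas, Ckm had 1, 0, 12 and 19 UMIs in WT, Early, Advanced 1 and Advanced 2, and Ttn had 8, 181, 145 and 139. The 18 genes of the list summed to 0.271 UMIs per 10000 in WT, 0.625 in Early, 0.885 in Advanced 1 and 1.13 in Advanced 2. Ttn gave 8 of 49 list UMIs in WT, 181 of 324 in Early, 145 of 299 in Advanced 1 and 139 of 363 in Advanced 2. Of 5 that could be tested between edge and interior, 1, Ckm, was higher at the edge.

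A few spots carried much of the signal. The 10 spots with the most member UMIs held 25.2% of them in WT, 18.5% in Early, 22.5% in Advanced 1 and 31.7% in Advanced 2, while holding 7.05%, 5.23%, 6.31% and 4.79% of all UMIs. Of these 10, edge spots made up 9, 8, 7 and 9 in the same order of areas. Edge spots held 79.3%, 75.7%, 47.9% and 64.5% of all UMIs there, and a ranking by count favours deep spots. The richest spot of Advanced 2 held 150 member UMIs among 17943, of which 52 were Acta2, 31 Myl9, 25 Tagln, 16 Tpm2 and 11 Myh11. Its 4 neighbours over tissue averaged 47.2 member UMIs per 10000, where the whole area stood at 5.06. It also held blood endothelial genes at 59.6 and adipocyte genes at 111 UMIs per 10000, and no skeletal muscle UMI. The richest WT spot held 51 member UMIs among 4419, led by Myl9 with 15 and Acta2 with 14, and its neighbours were at 43.9 per 10000. In Early and Advanced 1 the richest spots held 82 and 52 member UMIs, and their neighbours stood at only 7.50 and 6.83 per 10000. Leaving out the richest spot of each area kept Acta2 (0.66, adjusted p = 0.00489) and Myl9 (0.65, adjusted p = 0.0176) called at the edge.

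**Figure D4:**
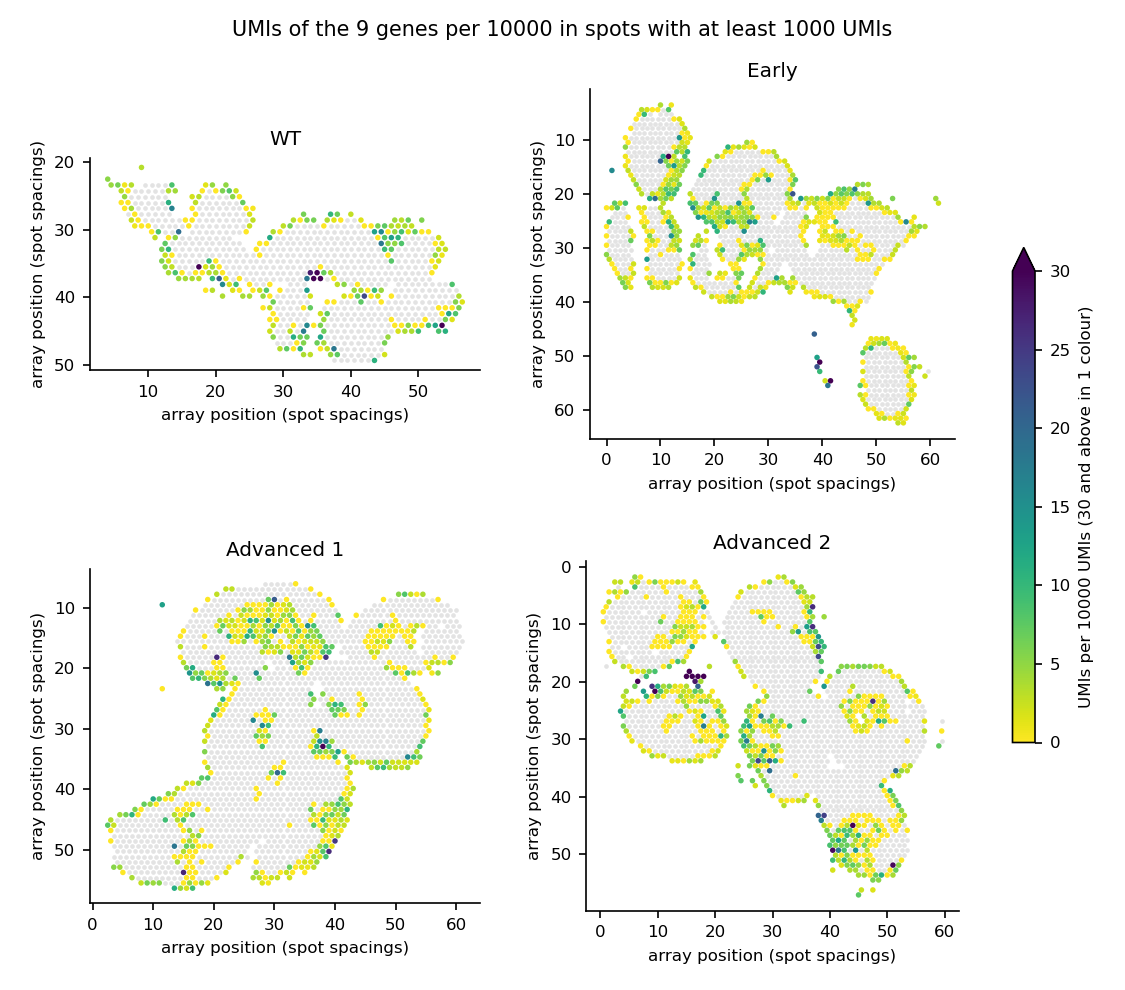
Positions of the spots over tissue in the 4 capture areas, in spot spacings, coloured from yellow to dark by the members' UMIs per 10000 in spots with at least 1000 UMIs; grey spots are below that depth. Dark spots form small groups, many at the rim, as in Advanced 2, whose richest spot holds 83.6 UMIs per 10000, and most interior spots are grey.

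To ask what accompanied the contractile genes, spots with at least 1000 UMIs were ranked by the members' share of UMIs, and the highest 10% of each area were set against the rest. This gave 27 of 273 spots in WT, 60 of 601 in Early, 58 of 579 in Advanced 1 and 60 of 604 in Advanced 2. The last spots inside and the first outside the limit stood at 10.9 and 10.8 member UMIs per 10000 in WT, 8.67 and 8.51 in Early, 8.86 and 8.78 in Advanced 1, and 9.62 and 9.51 in Advanced 2. The ranking used the members, so they were left out of the test; they stood at 13.8 to 25.5 UMIs per 10000 in the high spots and 2.66 to 3.35 in the others. Because some high spots held a single member UMI, the group can also hold spots that ranked high by counting error. Between 46.6% and 59.3% of them touched another high spot; the share that chance would give was not computed. They lay at the edge in 59.3%, 60.0%, 36.2% and 55.0% of cases in WT, Early, Advanced 1 and Advanced 2, against 70.3%, 63.4%, 32.8% and 46.0% of the other spots.

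When spots were ranked by the other 8 members, so that each gene was absent from its own ranking, Acta2 in the high spots was 6.62 times its level elsewhere in WT, 4.73 times in Early, 3.57 times in Advanced 1 and 9.68 times in Advanced 2. Myl9 had ratios of 8.90, 6.01, 5.79 and 8.46, and Tagln of 4.04, 4.19, 3.04 and 7.32. Myh11 had ratios of 2.80, 3.62, 3.44 and 6.31, and Tpm2 of 4.44, 3.57, 2.09 and 7.02. Des stood apart, with ratios of 1.92, 1.21, 1.13 and 1.64, the lowest of these 6 genes in each area. Lmod1, on few UMIs, had ratios of 11.2, 18.9, 3.61 and 16.8.

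Over spots of at least 1000 UMIs (273 to 604 per area) Acta2 and Myl9 had the highest mean correlation among pairs of members, r = 0.30 over the 4 areas (0.19 to 0.37), and 0.12 once each spot was thinned to 1000 UMIs. Acta2 with Tagln gave 0.26, Acta2 with Des 0.07 and Myh11 with Des 0.05. Spots of 1 area share a library and tissue neighbours, and differ in depth, so these are descriptions. The genes outside the list with the highest mean correlation with the summed members, among 10688 candidates with a median r of 0.031, were Mgp (0.29), a matrix protein of vessel walls, Bgn (0.26), Gsn (0.25), Col1a1 (0.23), Dcn (0.21), Ifitm2 (0.21), Fhl1 (0.21), Inmt (0.20), Col1a2 (0.20) and Bcam (0.20). Bgn, Dcn, Col1a1 and Col1a2 encode proteoglycans and collagen chains of the extracellular matrix.

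In the test of the high spots with area as a block, edgeR called 257 of 11008 genes (2.33%), 206 of them higher (1.87%) and 51 lower (0.463%). Of 27 contractile program genes tested, 10 were higher and 0 lower, with a median log2 difference of 0.47 where the median of all genes was -0.02. The 4 with the largest differences were Itga8, an integrin subunit of contractile cells (3.19, SE 0.67, adjusted p = 0.00129), Ppp1r14a (2.14, SE 0.32, adjusted p = 2.08e-06), Hspb1 (2.06, SE 0.28, adjusted p = 2.53e-07) and Pdlim3, a protein of the actin anchoring sites (2.03, SE 0.44, adjusted p = 0.00203). The other 6 were Gucy1a1 (1.47), a subunit of the nitric oxide receptor, Cald1 (1.12), Tpm1 (0.95), Mylk (0.85), the kinase of the myosin light chain, Csrp1 (0.73) and Flna (0.44). The count ran from 5 to 10 over the alternative settings. Pericyte genes were higher in 3 of 7 tested, Mcam (1.23), Notch3 (1.14) and Pdgfrb (0.85), while Rgs5 had a log2 difference of 0.00.

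Of 12 blood endothelial genes 6 were higher in the high spots, and of 10 lymphatic endothelial genes 1 was. The median log2 differences of the lists were close, at 0.41 and 0.39. The difference between these counts was not tested. Vwf stood at 1.94 UMIs per 10000 in the high and 0.307 in the other spots of WT, 0.369 and 0.109 in Early, 0.753 and 0.377 in Advanced 1, and 4.64 and 0.168 in Advanced 2. It was the higher in high spots in 4 of 4 areas, with a log2 difference of 2.78 (SE 0.27, edgeR adjusted p = 1.01e-11); DESeq2 gave 2.50 and an adjusted p of 0.0671, and without Advanced 2 edgeR gave 1.66 (adjusted p = 0.00161). The others were Ptprb (1.32), Emcn (1.16), Esam (1.03), Eng (0.61) and Plvap (0.44), which encode proteins of the endothelial surface and junctions. Without Advanced 2, and with spots thinned to 1000 UMIs before ranking, only Vwf and Ptprb of the 12 were called. Of the arterial list 2 of 5 tested were higher, Sema3g (2.03, SE 0.54, adjusted p = 0.0211) and Fbln5 (1.57, SE 0.26, adjusted p = 1.48e-05), and of the venous list 0 of 5 were called by edgeR or by DESeq2. The arterial and venous medians were close, at 0.60 and 0.55. Each list had 3 genes at an unadjusted p below 0.05 by edgeR, and the difference between the lists was not tested.

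Mmrn1, multimerin 1, was the lymphatic gene that was higher in the high spots. It stood at 1.18 UMIs per 10000 in the high and 0.985 in the other spots of WT, 0.835 and 0.308 in Early, 0.949 and 0.515 in Advanced 1, and 1.03 and 0.599 in Advanced 2. Its level was higher in the high spots of 4 of 4 areas, with a log2 difference of 0.93 (SE 0.19, adjusted p = 0.000864), and the call was lost without Early (0.71, adjusted p = 0.180). Prox1, the transcription factor that marks lymphatic identity, had 0.38 (adjusted p = 0.708), Ccl21a 0.27 (adjusted p = 0.350) and Lyve1 -0.01 (adjusted p = 0.987). Nts had 1.71 from 71 UMIs (edgeR adjusted p = 0.118). Foxc2 had 0.83, Pdpn 0.49, Reln 0.40, Stab2 0.21 and Flt4 0.11, none of them called. The mean correlation over spots of the summed members was 0.16 with the blood endothelial list (0.11 to 0.21 over areas) and 0.06 with the lymphatic list (0.03 to 0.09). After thinning these were 0.0599 and 0.0153. Myh11 alone had a mean r of -0.05 with the lymphatic list.

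**Figure D5:**
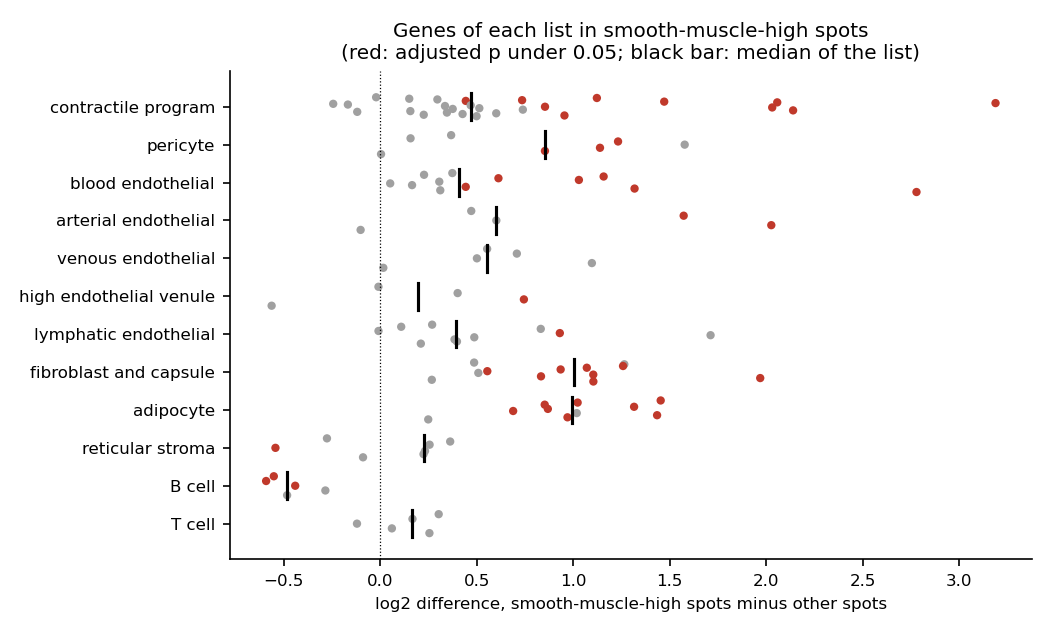
Log2 difference between spots high in smooth muscle genes and other spots, with 1 point per gene and 1 row per marker list; red points passed an adjusted p of 0.05, grey points did not, and black bars are list medians. Itga8 (3.19) and Vwf (2.78) lie farthest to the right, and Mmrn1 (0.93) is the red point among lymphatic genes.

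Connective tissue genes moved with the same spots. Of 12 fibroblast and capsule genes 8 were higher, among them Mfap5 (1.97), Col1a1 (1.26), Pi16 (1.10) and Gsn (1.10), and this list had the highest mean correlation with the summed members of the lists compared, 0.27 (0.23 to 0.34), and 0.160 after thinning. Over the alternative settings the count of fibroblast and capsule genes ran from 3 to 9. Summed, it stood at 36.7 UMIs per 10000 in the high and 23.3 in the other spots of WT, 31.2 and 14.1 in Early, 25.7 and 17.8 in Advanced 1, and 35.7 and 14.2 in Advanced 2. Of 10 adipocyte genes 8 were higher, led by Adipoq (1.45), Plin4 (1.43) and Cidec (1.32), but only 1 to 9 over the alternative settings, and none of these 3 was called without Advanced 2. The adipocyte sums in high and other spots were 17.4 and 16.0 in WT, 21.7 and 10.4 in Early, 20.6 and 19.0 in Advanced 1, and 51.3 and 21.9 in Advanced 2. Among B cell genes Cd22 (-0.59) and Cd79a (-0.44) were lower, and Cxcl13, the chemokine of B cell follicles, had -0.54. Skeletal muscle genes stood at 0.323 in the high and 0.276 in the other spots of WT, and lower in the high than in the other spots of the other 3 areas (0.606 and 1.25 in Advanced 2), and none of the 3 that could be tested was called by edgeR or DESeq2. The part of these other tissues in the contractile levels was not tested.

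Separate pieces of tissue within an area differed in the summed members. In Advanced 2 a piece of 249 spots stood at 7.01 UMIs per 10000 (6.43 to 7.62) and the larger piece of 1517 spots at 4.45 (4.18 to 4.73), with intervals that did not overlap. In Early the pieces of 313, 924, 79 and 158 spots stood at 3.84, 3.63, 3.43 and 2.18. Pieces under 50 spots, all of whose spots were edge spots, mattered in Early: 15 spots in 8 pieces held 213 member UMIs, 10.8% of the members' total from 2.71% of all UMIs, at 15.1 per 10000. Acta2 gave 67 of these UMIs, Myl9 43, Tagln 36 and Myh11 28. Without them the Early edge was at 3.44 against 3.60 in the interior, below rather than above it. The calls of Acta2 (0.74, adjusted p = 0.00438) and Myl9 (0.77, adjusted p = 0.00527) over the 4 areas held without these pieces.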

How the data were processed

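Sections of PLNs were measured on 4 Visium capture areas. The authors' processing gave UMI counts per gene and spot, deposited as matrices with in-tissue spot positions; the submitters' processing notes name Space Ranger 1.1.0, Seurat 4.0.3, R 4.1.1 and the mm10 build. Raw counts of in-tissue spots were used, with nothing normalized or filtered beforehand, and 0 columns of per-sample values were left unused. The areas shared 464 to 1050 spot barcodes pairwise, which are positions of 1 common grid.

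Counts were summed per area, or per area and spot class, and tested across all genes with edgeR 4.0.16 in R 4.3.3 (quasi-likelihood, TMM, filterByExpr, Benjamini-Hochberg adjustment, threshold 0.05), with DESeq2 1.42.0 as the alternative. The area was a block wherever spot classes were compared. SEs were obtained from the log2 difference and its F statistic. Levels carry exact Poisson intervals, and ratios of counts exact binomial ones. P-values of the stage tests measure only the spread between areas. With the area as a block they measure only how the difference between spot classes varied from area to area. In the interaction fits that variation came from the Advanced pair alone. For the high spots the members were removed before adjustment. Named genes were all 9 members, up to 4 called genes per marker list with the largest difference or else the 2 with the most UMIs, and the 10 most alike genes with at least 100 UMIs; others were named after their values were seen. The members, lists and tests were chosen with earlier results of these data known. In data simulated for edge against interior spots, 78.2% of genes changed by a log2 value of 1 were recovered over 11410 genes; for Advanced against Early it was 46.2% over 12810 genes. Where symbols were duplicated, the feature on a reference chromosome was used.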

Additional observations from a re-analysis of the deposited data

Results flagged for a closer look

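Vwf and Stab2 met the rule for a difference between groups: in the interaction fit their edge to interior difference was not the same in the Advanced areas and in WT. For Vwf the log2 difference of differences was 1.99 (SE 0.50, edgeR adjusted p = 0.0296). Its level was 0.348 UMIs per 10000 in edge and 0.562 in interior spots of WT, 0.445 and 0.364 in Advanced 1, and 0.906 and 0.123 in Advanced 2. The direction in Advanced 1 and Advanced 2 was thus opposite to that of WT, and the size rested mostly on Advanced 2. For Stab2, a scavenger receptor of sinus endothelium, the value was -1.38 (SE 0.31, edgeR adjusted p = 0.00782). Its level was 2.13 in edge and 1.34 in interior spots of WT, 0.977 and 1.56 in Advanced 1, and 1.53 and 2.48 in Advanced 2. This comparison was added after the data were seen and has a single WT area. DESeq2 called 0 genes in it, and with no filter on low counts edgeR called 0; Vwf and Stab2 were also not called with DESeq2's size factors, and Vwf not with immunoglobulin genes left out. Among the smooth muscle genes, Tpm2 had the lowest adjusted p in the same fit (0.265).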

How the results depend on the processing

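The number of members called higher at the edge, 2 in the fit described, was 4 with no filter on low counts and 0 to 4 when 1 area was left out. The genes called in that fit, 890 in all, were 419 by DESeq2, 517 with an edge of 2 steps, 536 among spots of at least 500 UMIs, and 272 to 1119 with 1 area left out. Tpm2 reversed there, to -0.32 without Advanced 2 (range -0.32 to 0.27 with 1 area left out) and to -0.020 without the richest spot of each area. For Advanced against Early the 152 calls over all spots were 7 by DESeq2 and 36 in interior spots, where Myh11 (-0.10), Tagln (-0.16) and Tpm2 (-0.16) reversed, and the 18 calls over edge spots were 88 without a filter and 11 by DESeq2. For Advanced against WT the 272 calls were 33 by DESeq2 and 40 in interior spots, where Tagln was at -0.48; Myl9 (0.019) and Tpm2 (0.10) reversed with library totals, and Tpm2 (0.023) in spots of at least 500 UMIs. The 126 calls over edge spots were 317 without a filter and 39 by DESeq2. The 5 calls of the interaction with Early were 0 with DESeq2 size factors, 0 without a filter and 0 by DESeq2, and Des was at 0.0016 with library totals. The 30 calls of the interaction with WT were 2, 0 and 0 in that order. The 257 calls of the high spots were 111 by DESeq2, 145 with spots thinned, and 75 to 311 with 1 area left out. Library totals in place of TMM gave 88 higher and 45 lower genes against 65 and 87 for Advanced against Early, 165 and 129 against 96 and 176 for Advanced against WT, 50 and 66 against 37 and 89 for the same in edge spots, and 3 and 4 against 1 and 4 for the interaction with Early. Leaving immunoglobulin genes out of the totals put the summed members at 4.86 in WT, 4.17 in Advanced 1 and 5.49 in Advanced 2. Thinning lowered the mean correlation of the summed members to 0.0319 with the contractile program, 0.0565 with pericyte, 0.0153 with lymphatic, 0.0599 with blood endothelial, 0.0364 with arterial, 0.0335 with venous, 0.0178 with high endothelial venule, -0.00833 with skeletal muscle, 0.160 with fibroblast, 0.0692 with adipocyte and 0.0475 with reticular stroma genes. The causes of these changes were not tested. Library totals, the richest spots, the small pieces and the interaction with WT were added after the data were seen. Between stages: No paired analysis was possible because the groups compared share fewer than 2 replicate numbers; spot classes were compared within areas. Depth limits interior spots, and Cnn1, Actg2 and Lmod1 with 62, 63 and 84 UMIs in all, the most. With 4 areas, of which WT and Early are 1 each, the spread within a stage is known from Advanced alone.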

Other observations

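Outside the marker lists, 167 genes were higher and 47 lower in the spots high in smooth muscle genes. The examples here were picked after their values were seen. Mgp, matrix Gla protein, a matrix component of vessel walls, had a log2 difference of 2.76 (SE 0.15, edgeR adjusted p = 5.2e-25). Fhl1, a LIM-domain protein of muscle, had 2.80 (SE 0.31, adjusted p = 4.56e-10), and Apod, an apolipoprotein of perivascular fibroblasts, had 2.61 (SE 0.29, adjusted p = 6.46e-10). Cavin1 (1.33), which coats the caveolae that abound in smooth muscle, endothelium and fat, Aqp1 (1.07), a water channel of endothelium, and Fbln2 (1.86), a matrix protein, were also higher. Mustn1 had 1.45 and Sparcl1 1.45.

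Among the genes lower in these spots were Ighg1 (-0.95, SE 0.12, adjusted p = 1.63e-08), an immunoglobulin heavy chain of plasma cells, Coch (-1.19), Trim7 (-0.98) and Hamp (-2.06).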
